A study of Homo sapiens with 24 samples.

Results

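The arterial and venous identity loci are 9 windows of the human genome (build hg19) around EFNB2, EPHB4, NR2F2, HEY2, SOX17, GJA4, GJA5, UNC5B and CXCR4, genes whose activity differs between endothelial cells of arteries and of veins. Their members are the H3K27ac peaks with a −log10 q of 2 or more in 20 ChIP libraries that fall in these windows. Merged over libraries wherever they overlapped by at least 1 bp, these peaks form 44 regions, of 89609 in the whole series. A peak was assigned to its window and not to its gene. In RefSeq gene order, EPHB4 overlaps SLC12A9, while ARGLU1 adjoins EFNB2 and SLC29A3 adjoins UNC5B.

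H3K27ac, acetylation of lysine 27 of histone H3, marks active promoters and enhancers. It was profiled by ChIP-seq in 2 endothelial lines with unmodified (parental) genomes. TeloHAEC are aortic endothelial cells immortalized with telomerase, grown in an endothelial medium that contains VEGF. Eahy926 is a hybrid line, made by fusing umbilical vein endothelial cells with a lung carcinoma line, and was grown in DMEM with fetal bovine serum and no VEGF, so the line, its origin and its medium cannot be told apart. Each line had 2 untreated control libraries prepared on day 0 and 2 on day 1. On day 1 it also had 2 libraries each after 24 h with 10 ng/ml IL1b, after 24 h with 10 ng/ml TNFa, and after 24 h of changed VEGF, which was omitted from the TeloHAEC medium and added to the Eahy926 medium. Libraries of a group are biological replicates per the labels, which do not say whether they came from separate cultures.

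ChIP libraries of day 0 held 18387194 to 21135399 tags and 47904 to 58561 peaks, and those of day 1 held 3843129 to 7122108 tags and 28168 to 55044 peaks. Coverage is given as covered bp, the length under peaks scaled to an equal total in every library, so 0 means that no peak passed the threshold and not that acetylation was absent. In bulk chromatin, fewer cells with the mark and less of it per cell cannot be told apart. The 4 input libraries had 0 peaks in all 9 windows, but each held only 99 to 133 peaks over the whole genome, so this says little about these loci. Windows around the endothelial markers CDH5, TIE1, TEK, KDR, VWF and ERG held peaks in all 20 ChIP libraries, and their summed coverage ranged from 31838 to 38832 bp over TeloHAEC libraries and from 24654 to 28766 bp over Eahy926 libraries.

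Arteries and veins differ in molecular identity before and beyond any effect of flow. Arterial endothelium displays the ligand ephrin-B2, encoded by EFNB2, and venous endothelium its receptor, the tyrosine kinase EPHB4. The transcription factor NR2F2 (COUP-TFII) maintains venous identity and restrains Notch signalling, which in arteries acts through targets such as HEY2. GJA4 and GJA5 encode arterial connexins, the channel proteins of gap junctions, while UNC5B, a netrin receptor, and CXCR4, a chemokine receptor, are enriched in arterial and tip cells.

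RefSeq promoter entries (build GRCh38.p14) were found for 6 of the 9 genes. They are shown for 4 genes whose windows carried the contrasting patterns below, HEY2 and EFNB2 with peaks in TeloHAEC alone, EPHB4 with peaks in both lines and CXCR4 with peaks in Eahy926 alone. Each run gives the 250 bases before the transcription start, 5′ to 3′ in the direction of the gene. The HEY2 window is chr6:125749382-125749631 (plus strand), the EFNB2 window chr13:106535663-106535912 (minus strand), the EPHB4 window chr7:100827524-100827773 (minus strand) and the CXCR4 window chr2:136118150-136118399 (minus strand). Capitals mark matches, on either strand, to GGAA (the core of ETS factor sites) and TGGGAA (the core of RBPJ sites, through which Notch acts), and a TGGGAA match contains a GGAA match.
HEY2: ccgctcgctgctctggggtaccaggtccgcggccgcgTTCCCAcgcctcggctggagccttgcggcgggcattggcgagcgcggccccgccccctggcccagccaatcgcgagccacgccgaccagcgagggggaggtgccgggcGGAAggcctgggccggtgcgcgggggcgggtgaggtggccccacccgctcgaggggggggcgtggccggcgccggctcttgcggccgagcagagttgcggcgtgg
EFNB2: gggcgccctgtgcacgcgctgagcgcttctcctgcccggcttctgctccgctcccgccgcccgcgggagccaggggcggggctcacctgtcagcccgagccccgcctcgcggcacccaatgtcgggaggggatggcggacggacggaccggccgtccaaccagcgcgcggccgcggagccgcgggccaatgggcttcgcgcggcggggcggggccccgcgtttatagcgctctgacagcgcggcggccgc
EPHB4: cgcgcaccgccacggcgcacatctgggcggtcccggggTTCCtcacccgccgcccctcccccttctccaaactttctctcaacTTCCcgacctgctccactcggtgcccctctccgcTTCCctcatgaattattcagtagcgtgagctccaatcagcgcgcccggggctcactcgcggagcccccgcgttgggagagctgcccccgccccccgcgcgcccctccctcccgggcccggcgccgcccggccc
CXCR4: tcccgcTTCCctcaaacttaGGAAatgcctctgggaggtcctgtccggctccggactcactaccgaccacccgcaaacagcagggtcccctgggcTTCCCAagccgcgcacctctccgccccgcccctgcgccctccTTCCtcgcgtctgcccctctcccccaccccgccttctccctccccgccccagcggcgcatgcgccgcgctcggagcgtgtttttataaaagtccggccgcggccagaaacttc
GGAA occurred in 92.7% of the 35116 RefSeq promoter windows of this length and TGGGAA in 20.8%. The HEY2 and CXCR4 runs each held 1 TGGGAA, the EPHB4 run held 3 GGAA and no TGGGAA, and the EFNB2 run held neither. Further motifs were searched on both strands, and none matched these 4 runs. For SOX factors they were ACAAT and its relative ACAAAG, either of which occurred in 33.7% of promoters. For NF-kB they were GGGACTTTC and its relative GGGAATTTC, in 0.609%. For GATA factors they were AGATAA and its relative TGATAA, in 14.6%. All 4 runs are rich in CpG, with 35 in HEY2, 40 in EFNB2, 29 in EPHB4 and 24 in CXCR4 against a median of 11 over all promoters. CXCR4 has 3 RefSeq entries, of which the first is shown. The other 2 have 12 and 8 CpG and 1 SOX match each, and the second entry holds neither GGAA nor TGGGAA. The peaks are in hg19 coordinates, so whether a peak covers one of these runs was not determined, and the matches describe letters only.

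Counted over any library, more regions had peaks in TeloHAEC alone than in Eahy926 alone, but not when peaks in 5 or more libraries were asked for. Of the 44 regions, 24 (54.5%) had peaks in TeloHAEC libraries alone, where 35.4% of all regions of the series did. Another 7 (15.9%) had peaks in Eahy926 alone, against 20.3% of all regions, and 13 had peaks in both lines. Regions with peaks in 5 or more libraries of 1 line and none of the other numbered 3 for TeloHAEC and 3 for Eahy926 (6.82% each), against 9.74% and 4.78% of all regions. Peaks in all 20 libraries were found in 3 regions, at EPHB4, NR2F2 and UNC5B, and 12 regions had a peak in a single library. GJA4 had none in any library.

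**Figure D1:**
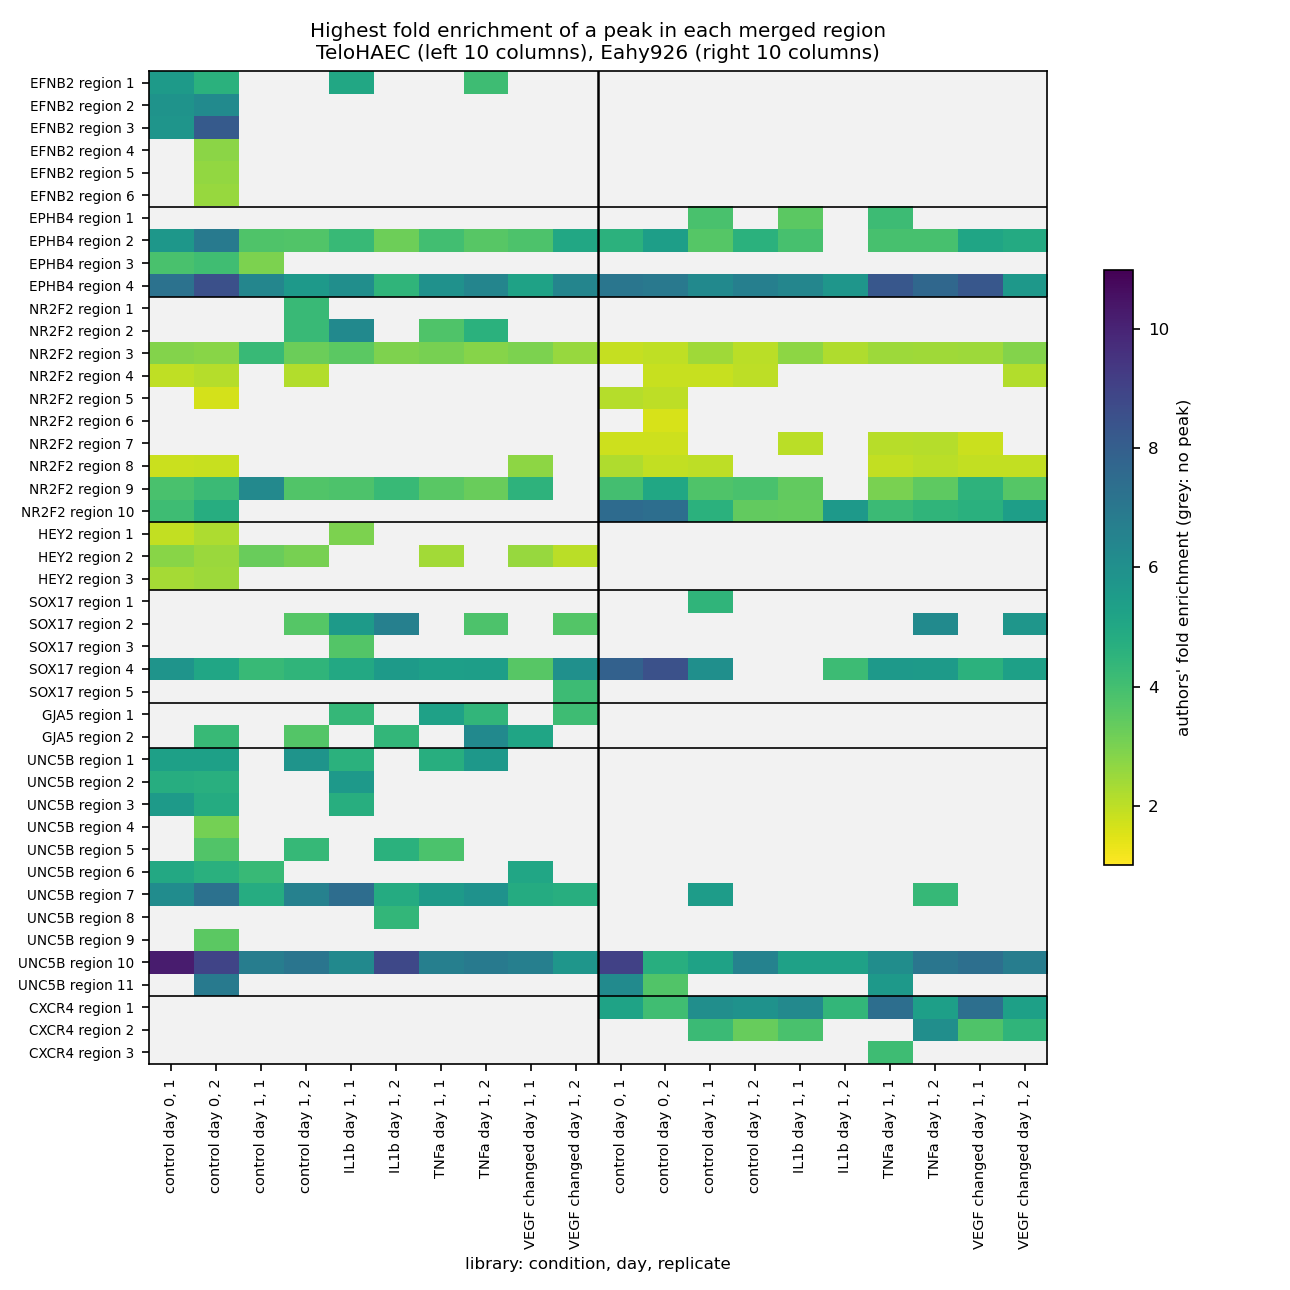
Each row is 1 of the 44 merged regions, numbered by position within its window, and each column 1 ChIP library, with colour giving the highest fold enrichment of a peak there (the authors' value, linear scale) and grey no peak. EFNB2, HEY2 and GJA5 are coloured in TeloHAEC columns alone, CXCR4 in Eahy926 columns alone, and 3 regions are coloured in all 20.

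Levels set against window length put EPHB4 first in both lines. Peaks covered 6.05 ± 2.62% of its 50-kb window in the controls of TeloHAEC and 5.28 ± 1.29% in those of Eahy926 (SD, n = 4), and in each line its lowest control lay above every control of the next locus. In TeloHAEC the next were UNC5B at 2.85%, NR2F2 at 2.85%, SOX17 at 2.42% and HEY2 at 2.26%, and neighbours in this order overlapped in range, as they did down to EFNB2 at 0.860% and GJA5 at 0.318%. In Eahy926, NR2F2 followed at 3.71 ± 0.249% and was separate from CXCR4 at 1.37%, SOX17 at 0.779% and UNC5B at 0.647%, whose ranges overlapped in turn.

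For the test between lines, covered bp was summed in 10-kb bins over the whole genome and log2(covered bp + 200) was compared with limma, TeloHAEC minus Eahy926, with Benjamini-Hochberg adjustment over 39412 bins. The 9 windows hold 61 such bins, of which 20 had enough coverage to be tested, 5 had some peak but were too sparse, and 36 had no peak in any library. In controls, 9 of the 20 tested bins were called higher in TeloHAEC and 2 lower at an adjusted p under 0.05, where 22.8% and 20.1% of all tested bins were. The median difference was 0.65 over the 20 bins and -0.03 over all tested bins. Of the 20, 9 had peaks in TeloHAEC alone and 1 in Eahy926 alone. To be tested, a bin needed 500 or more unscaled bp in 2 of the 20 ChIP libraries, and 10 bins met this through TeloHAEC libraries alone and 1 through Eahy926 libraries alone. Those 11 bins entered through the line where they are high, so their calls between lines, in the controls and in the cytokine libraries, are a description. They hold 8 of the 11 calls in controls. The other 3 calls, at NR2F2 chr15:96900001-96910000, SOX17 chr8:55370001-55380000 and UNC5B chr10:73030001-73040000, were in bins that libraries of both lines carried past the filter. Leaving out 1 library leaves 1 in its group, which is then assumed to vary like the other groups. Groups with both libraries at 0 add no spread to the fit and lower the SE.

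**Figure D2:**
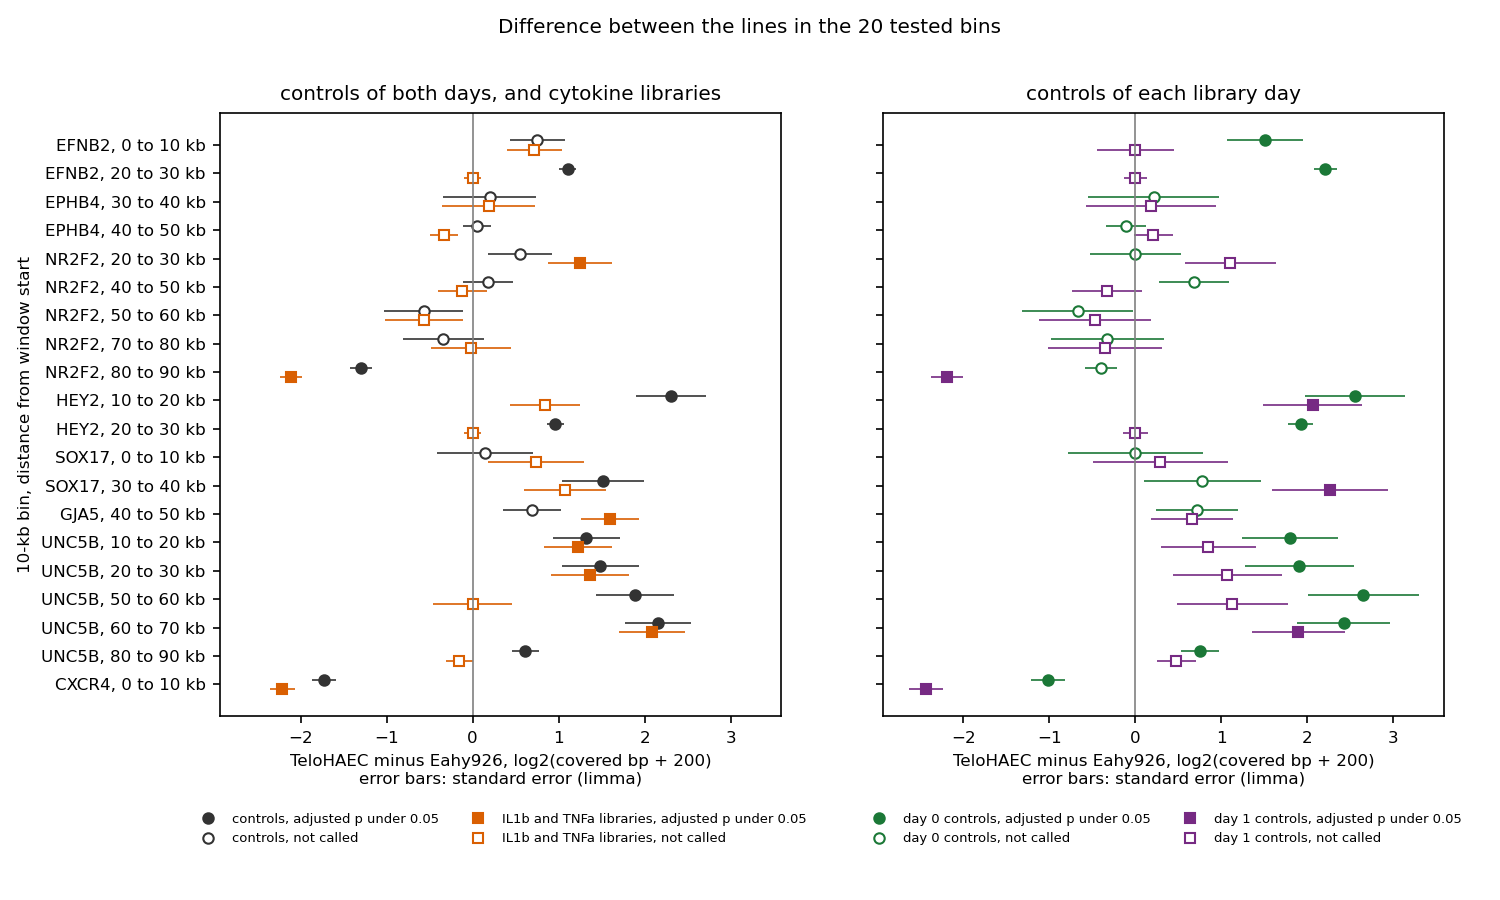
Each point is the difference in log2(covered bp + 200), TeloHAEC minus Eahy926, of 1 of the 20 tested bins, with its standard error, filled where the adjusted p was under 0.05. The left panel shows controls of both days and the cytokine libraries, the right panel controls of each day. CXCR4 lies to the left of 0 in all 4 series and the UNC5B bin at 60 to 70 kb to the right in all 4, while EFNB2 at 20 to 30 kb and HEY2 at 20 to 30 kb lie to the right in day 0 controls and at 0 in day 1 controls.

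EFNB2, in the window chr13:107120001-107210000, carried peaks in TeloHAEC alone, and almost all of them in the deeply sequenced day 0 controls. Its window held 951 and 2144 covered bp in the day 0 TeloHAEC controls and 0 in both day 1 controls. Of the 6 treated TeloHAEC libraries, IL1b replicate 1 held 418 bp, TNFa replicate 2 held 276 bp and the others 0, and all 10 Eahy926 libraries were at 0. The bin chr13:107140001-107150000 held 664 and 788 bp in the day 0 TeloHAEC controls and 0 in the other 18 libraries. It was called higher in TeloHAEC at 1.10 ± 0.0947 (log2, SE, adjusted p = 9.87e-07), at 2.21 in day 0 controls and at 0 in day 1 controls. The small SE comes from groups in which both libraries are at 0 and add no spread. Both tested EFNB2 bins met the coverage filter through TeloHAEC libraries alone, so their calls are a description. TeloHAEC libraries of day 0 had 18387194 to 20952578 tags and those of day 1 had 3843129 to 5912920, and the part of depth in this result cannot be told apart from the day. The first bin of the window, where 4 TeloHAEC libraries of both days had a peak at chr13:107124291-107125285 with a fold enrichment of 4.11 to 5.56, did not pass the test (0.75 ± 0.316, adjusted p = 0.0733). It was called with day 0 controls alone (1.51, adjusted p = 0.0217), without scaling (adjusted p = 0.0394) and when only the compared groups were fitted (adjusted p = 0.00435), and it was at 0 in day 1 controls.

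EPHB4, the venous receptor for ephrin-B2, was covered in every library of both lines. In its window, chr7:100390001-100440000, TeloHAEC controls held 2448 and 2058 bp on day 0 and 4955 and 2636 bp on day 1, and Eahy926 controls 2178, 2144, 3530 and 2713 bp. The means were 3024 ± 1309 and 2641 ± 647 bp (SD, n = 4), and the lines overlapped. The region chr7:100433316-100435198 had a peak in all 20 libraries, with a median fold enrichment of 6.24 in TeloHAEC and 6.84 in Eahy926, and the region chr7:100425282-100426968 in 19. Neither tested bin was called between the lines, with differences of 0.20 ± 0.537 and 0.05 ± 0.163 (log2, SE, adjusted p = 0.808 and 0.836).

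NR2F2 was covered in both lines, with 1 bin called lower in TeloHAEC and another called higher in its cytokine libraries. In its window, chr15:96820001-96920000, TeloHAEC controls held 2818, 2836, 2795 and 2938 bp and Eahy926 controls 3396, 3769, 3997 and 3666 bp. All Eahy926 controls lay above all TeloHAEC controls, at means of 3707 ± 249 and 2847 ± 63.2 bp (SD, n = 4). This order depended on the peak threshold, since with peaks at a −log10 q of 5 or more the log2 difference of the means turned from -0.36 to 0.40. Most NR2F2 peaks were low, and those of the region chr15:96868626-96870611, present in all 20 libraries, had a median fold enrichment of 2.95 in TeloHAEC. The highest median over all libraries was at chr15:96897425-96898390, with a peak in 18 libraries and a median fold enrichment of 3.8 when libraries without a peak count as 0.

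The bin chr15:96900001-96910000 set the lines apart at NR2F2 in day 1 libraries. It was covered in all 10 Eahy926 libraries, at 440 to 835 bp, and in TeloHAEC in the day 0 controls alone, at 376 and 484 bp. Controls differed by -1.30 ± 0.130 (log2, SE, adjusted p = 4.19e-06), by -0.40 on day 0 (adjusted p = 0.131) and by -2.19 on day 1 (adjusted p = 1.27e-06). All day 1 TeloHAEC groups were at 0 and added no spread to this SE. On day 1, TeloHAEC libraries held 3843129 to 5912920 tags and Eahy926 libraries 5568829 to 7122108, and the part of depth was not tested. The cytokine libraries do not enter that difference but share its fit and spread. In them TeloHAEC was at 0 in all 4 and Eahy926 at a mean of 672 bp, a difference of -2.12 (adjusted p = 3.75e-08). The call in controls was lost with peaks at a −log10 q of 5 or more and when every library was cut to the same number of its strongest peaks. The bin chr15:96840001-96850000 went the other way in the cytokine libraries, at 336 bp in TeloHAEC and 0 in Eahy926 (1.25, adjusted p = 0.0164), with 1 of the 4 TeloHAEC libraries at 0. This bin met the coverage filter through TeloHAEC libraries alone, so its call is a description. That call was lost without TeloHAEC IL1b replicate 1 and with IL1b libraries alone, and in controls the bin was not called (adjusted p = 0.264).

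HEY2, a Notch target and a transcriptional repressor that acts within the arterial programme, carried peaks in TeloHAEC alone. In the window chr6:126050001-126100000, TeloHAEC controls held 1508 and 1562 bp on day 0 and 1110 and 330 bp on day 1, and all 10 Eahy926 libraries were at 0. All 4 TeloHAEC controls thus lay above Eahy926. The bin chr6:126060001-126070000 was called at 2.31 ± 0.410 (log2, SE, adjusted p = 0.000638), at 2.55 on day 0 (adjusted p = 0.00477) and at 2.06 on day 1 (adjusted p = 0.0181). The next bin, chr6:126070001-126080000, was called at 0.96 (adjusted p = 6.77e-06) and was above 0 in 3 TeloHAEC libraries, both day 0 controls and 1 without VEGF. Both HEY2 bins met the coverage filter through TeloHAEC libraries alone, so these calls are a description. All Eahy926 groups were at 0 in both bins and added no spread to their SE. Peaks of the widest region, chr6:126068820-126070477, had a fold enrichment of 2.05 to 3.30 and were found in 7 TeloHAEC libraries. In the cytokine libraries neither bin was called between the lines, the first at 0.84 (adjusted p = 0.113) with 2 of 4 TeloHAEC libraries at 0.

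SOX17, a transcription factor of the arterial programme, was covered in both lines and more in TeloHAEC. In its window, chr8:55340001-55400000, TeloHAEC controls held 1138, 1065, 1537 and 2078 bp and Eahy926 controls 538, 579, 753 and 0 bp. The groups did not overlap, at 1454 ± 464 and 468 ± 325 bp (SD, n = 4), a ratio of 3.11. Most of it lay in the region chr8:55370394-55372143, which had a peak in all 10 TeloHAEC and 8 Eahy926 libraries. The rest in controls lay at chr8:55345041-55345278 in Eahy926 day 1 replicate 1 and at chr8:55345335-55346209 in TeloHAEC day 1 replicate 2. Where chr8:55370394-55372143 had a peak, the median fold enrichment was 5.21 in TeloHAEC and 5.57 in Eahy926, and the highest 5.98 and 8.53. This ratio to the local background thus did not follow the difference in coverage. In day 0 controls, of similar depth, the highest pileup (fragments stacked at a summit) did follow it. It was 67 and 78 in TeloHAEC against 26 and 31 in Eahy926. The bin chr8:55370001-55380000 was called at 1.52 ± 0.478 (log2, SE, adjusted p = 0.0221), at 0.78 on day 0 (adjusted p = 0.509) and at 2.26 on day 1 (adjusted p = 0.0248). That call was kept in 3 of the 8 fits that left out 1 control, and was lost without either day 0 control of either line and without Eahy926 day 1 control replicate 2, the library at 0. It was also lost at a −log10 q of 5 or more and with a pseudocount of 50 bp. In the cytokine libraries the difference was 1.08 (adjusted p = 0.0843), and the lines overlapped.

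The arterial connexin loci had little coverage. GJA4, in the window chr1:35240001-35280000, was at 0 in all 20 libraries. GJA5, in the window chr1:147210001-147260000, held peaks in 8 of 10 TeloHAEC libraries and in no Eahy926 library. TeloHAEC controls held 0, 338, 0 and 298 bp, and the 6 treated TeloHAEC libraries 237 to 600 bp. The bin chr1:147250001-147260000 was not called in controls (0.69, adjusted p = 0.124). In the cytokine libraries it was called at 1.60 ± 0.337 (log2, SE, adjusted p = 0.00203), with all 4 TeloHAEC libraries above all 4 Eahy926 libraries. The bin met the coverage filter through 3 TeloHAEC libraries, 2 of them among these cytokine libraries, so this call is a description. Its peaks, in the regions chr1:147252813-147253244 and chr1:147253476-147254076, were 432 and 601 bp wide when merged and had a fold enrichment of 3.7 to 6.3.

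UNC5B had the most regions and the broadest difference between the lines. In the window chr10:72950001-73080000, TeloHAEC controls held 3728, 4361, 3864 and 2854 bp and Eahy926 controls 839, 540, 1331 and 656 bp. The groups did not overlap, at 3702 ± 627 and 841 ± 349 bp (SD, n = 4), a ratio of 4.40. Of its 11 regions 8 had peaks in TeloHAEC alone and 3 in both lines. The region chr10:73030979-73032410 had a peak in all 20 libraries, with a fold enrichment of up to 10.2 in a TeloHAEC control.

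All 5 tested UNC5B bins were called higher in TeloHAEC controls. The bin chr10:73010001-73020000 held 889, 859, 1860 and 864 bp in TeloHAEC controls and 0, 0, 596 and 0 bp in Eahy926 controls. It differed by 2.16 ± 0.382 (log2, SE, adjusted p = 0.000629), by 2.42 on day 0 and by 1.89 on day 1 (adjusted p = 0.00428 and 0.0197). It was also called in the cytokine libraries, at 2.08 (adjusted p = 0.000766), where TeloHAEC libraries held 721 to 1064 bp and Eahy926 libraries at most 272 bp. The bin met the coverage filter in all 10 TeloHAEC libraries and in no Eahy926 library, where it reached 484 unscaled bp. It was not called in controls with peaks at a −log10 q of 5 or more or with equal covered length in every library. The other 4 bins were called at 0.61 to 1.89 over both days, all 4 on day 0 and none on day 1. Of these, all but chr10:73030001-73040000 met the filter through TeloHAEC libraries alone. Their calls, like that of chr10:73010001-73020000, are a description. The bin chr10:73030001-73040000, covered in both lines, held 954 bp in TeloHAEC and 561 bp in Eahy926 controls (0.61, adjusted p = 0.00782), but 854 and 978 bp in the cytokine libraries, a difference of -0.15 (adjusted p = 0.449). The bin chr10:73000001-73010000 went from 1.89 in controls (adjusted p = 0.00529) to 0 in the cytokine libraries, where neither line had a peak. The bin chr10:72960001-72970000 lost its call without TeloHAEC control replicate 2 of day 0 or of day 1, and the next, chr10:72970001-72980000, without either of these or either Eahy926 day 0 control, and when only the compared groups were fitted. Both were called in the cytokine libraries, at 1.23 and 1.36 (adjusted p = 0.0221 and 0.0256), and neither was called with IL1b or TNFa libraries alone. These calls rested on single libraries. The first was lost without Eahy926 IL1b replicate 2, either Eahy926 TNFa library, TeloHAEC IL1b replicate 1 or TeloHAEC TNFa replicate 2. The second was lost without any 1 of the 4 Eahy926 libraries, TeloHAEC IL1b replicate 2 or TeloHAEC TNFa replicate 1.

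CXCR4 carried peaks in Eahy926 alone. In the window chr2:136860001-136900000, Eahy926 controls held 206.6 and 203 bp on day 0 and 748 and 1034 bp on day 1, the 6 treated Eahy926 libraries 779 to 954 bp, and all 10 TeloHAEC libraries 0. The region chr2:136866026-136866704 had a peak in all 10 Eahy926 libraries, at a fold enrichment of 4.06 to 7.38. The bin chr2:136860001-136870000 differed by -1.73 ± 0.142 in controls (log2, SE, adjusted p = 6.84e-07), by -1.02 on day 0 (adjusted p = 0.0019) and by -2.44 on day 1 (adjusted p = 1.12e-06). In the cytokine libraries it differed by -2.21 (adjusted p = 5.79e-08). Since TeloHAEC had no peak there, the bin entered the test through Eahy926 libraries alone. All TeloHAEC groups were at 0 and added no spread, so the small SE does not measure variation in that line. Peaks near the epithelial genes EPCAM and KRT8 moved the same way, at 766 ± 162 against 1826 ± 301 bp for EPCAM and 558 ± 69.6 against 1252 ± 246 bp for KRT8 (TeloHAEC and Eahy926 controls, SD, n = 4). The KRT8 window is shorter than the RefSeq gene and so covers only part of it. The window of KRT18, the third epithelial marker, was at 1208 ± 618 and 1125 ± 182 bp, and the summed level of the 3 ranged from 1944 to 3443 bp over TeloHAEC libraries and from 3481 to 6863 bp over Eahy926 libraries. Their part in the CXCR4 result was not tested.

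**Figure D3:**
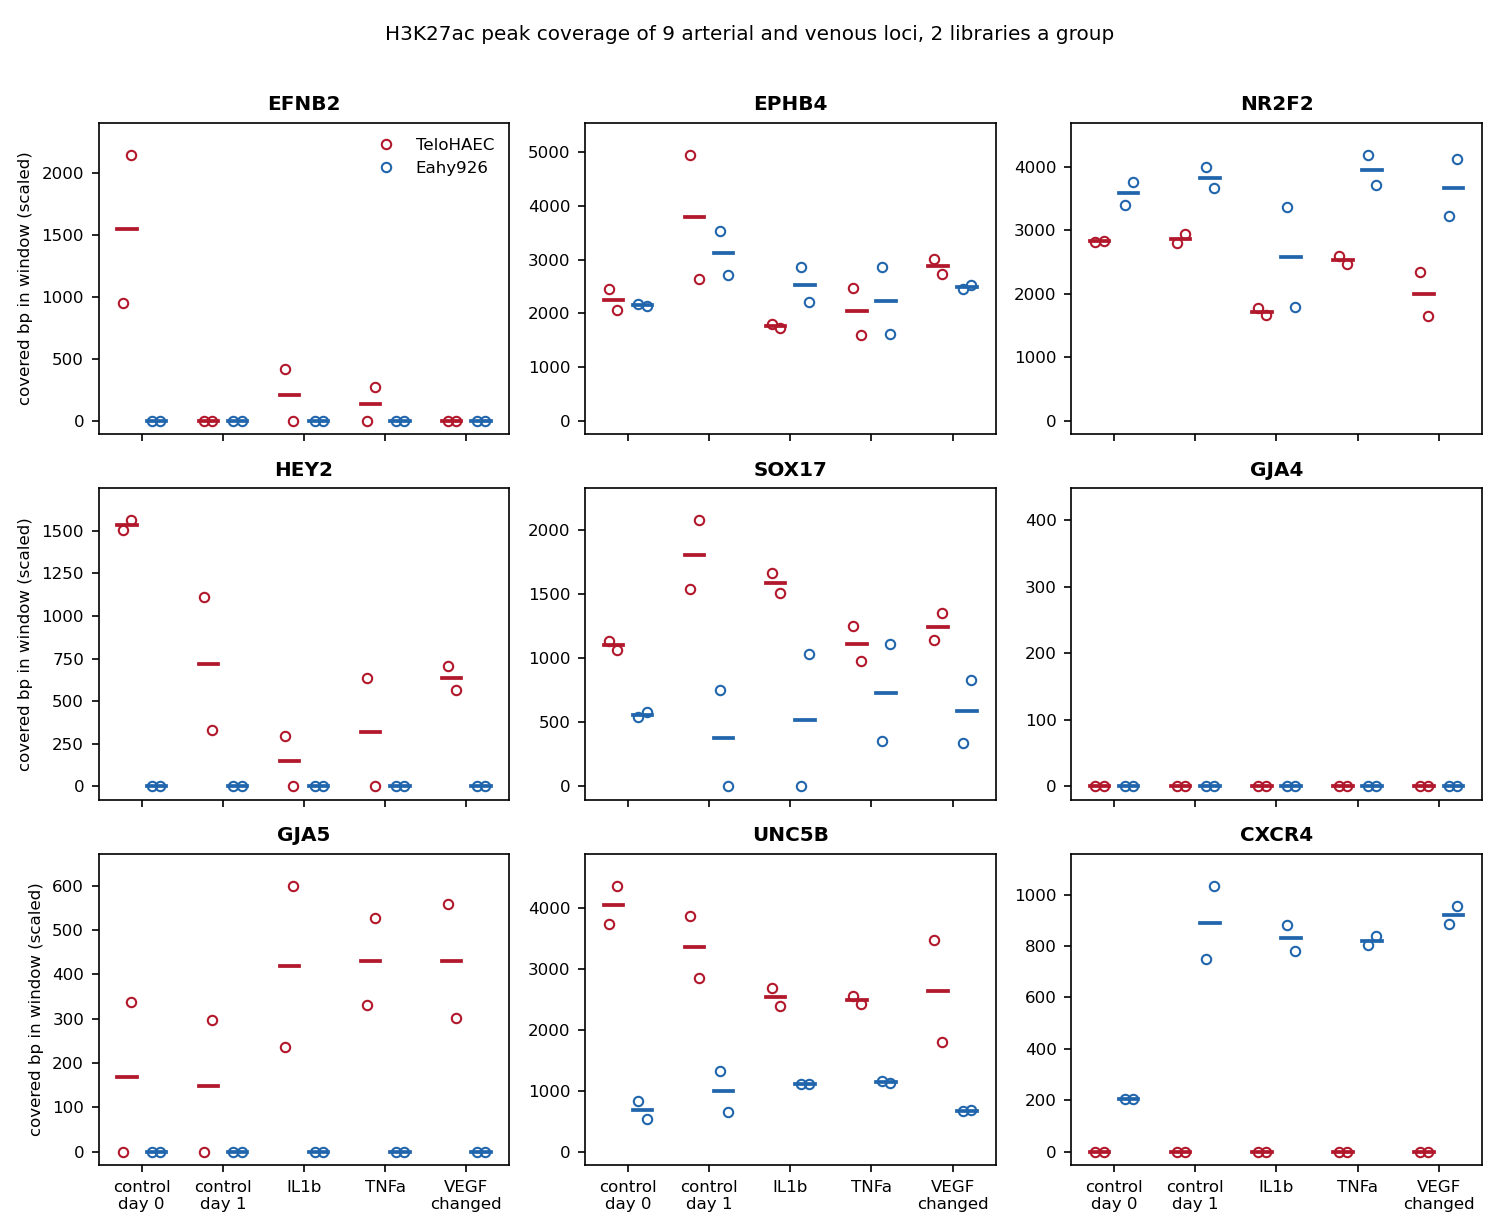
Each panel plots the covered bp of 1 window (linear axis, scaled to equal library totals) by line and group, with points for the 2 libraries of a group and bars for their mean. Eahy926 lies at 0 throughout for EFNB2, HEY2 and GJA5, TeloHAEC lies at 0 throughout for CXCR4, and both lie at 0 for GJA4.

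The line comparison in the cytokine libraries took its difference from no control library. Its spread and its coverage filter drew on all 20 ChIP libraries, so it is not independent of the control comparison. There 5 of the 20 bins were called higher in TeloHAEC and 2 lower, where 25.5% and 20.5% of all tested bins were. They were the UNC5B bins at 10 to 20, 20 to 30 and 60 to 70 kb from the window start, the GJA5 bin and 1 NR2F2 bin on the higher side, and the CXCR4 bin and the other NR2F2 bin on the lower. In both comparisons EPHB4 had no called bin, and the called bins of CXCR4, of UNC5B at these positions and of NR2F2 at chr15:96900001-96910000 had the same sign. The remaining control calls, at EFNB2, SOX17, both HEY2 bins and the other 2 UNC5B bins, were not called there. Of the 7 cytokine calls, NR2F2 chr15:96900001-96910000 alone was in a bin that both lines carried past the filter.

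No tested bin at these loci was called after a treatment, but in some bins no call was possible. In Eahy926, 9 of the 20 bins had no peak in any library, and in TeloHAEC 1 bin, at CXCR4. The bins EFNB2 chr13:107140001-107150000 and NR2F2 chr15:96900001-96910000 were at 0 in all day 1 TeloHAEC libraries. HEY2 chr6:126070001-126080000 was at 0 there in day 1 controls and after both cytokines. The share of such bins among all tested bins was not counted. The cytokines IL1b and TNFa activate inflammatory transcription through NF-kB in endothelium, and VEGF is an upstream signal of arterial fate. Called bins made up 4.29% of all tested bins after IL1b in TeloHAEC, 3.55% after TNFa, 1.67% without VEGF, 0.794% after IL1b in Eahy926, 1.21% after TNFa and 0.259% with VEGF, so with 20 bins at most 1 call would match the background. At an unadjusted p under 0.05 there were 2, 1, 0, 1, 0 and 0 of 20 bins in that order (limma), where 17.8%, 16.3%, 12.6%, 7.75%, 7.29% and 4.41% of all tested bins were. In the difference between lines of the mean cytokine response, 0 of 20 bins were called against 1.93% of all tested bins, and 1 had an unadjusted p under 0.05, against 14.8% of all tested bins.

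Among treatment differences that did not pass, the largest of a bin was at HEY2 in TeloHAEC after IL1b, and EPHB4 in the same libraries came closest to the threshold. The HEY2 window held 293 and 0 bp after IL1b, against 1110 and 330 bp in day 1 controls, and its first tested bin differed by -1.41 ± 0.579 (log2, SE, adjusted p = 0.231). After TNFa it held 635 and 0 bp (-1.03, adjusted p = 0.398), and without VEGF 705 and 563 bp. The EPHB4 bin chr7:100430001-100440000 held 1141 and 1275 bp after IL1b against 2687 and 1830 bp in day 1 controls, without overlap, a difference of -0.78 ± 0.231 (adjusted p = 0.0857). This bin was called with peaks at a −log10 q of 5 or more (-3.16, adjusted p = 0.00166), with equal covered length in every library (-2.24, adjusted p = 0.00793) and without TeloHAEC day 1 control replicate 2 (-1.04, adjusted p = 0.0166). TeloHAEC day 1 control replicate 1, the higher of the controls, was the shallowest ChIP library, at 3843129 tags, and the part of its depth was not tested. By log2(covered bp + 200) of the window total, GJA5 differed most after TNFa, at 332 and 528 bp against 0 and 298 bp in day 1 controls, and without VEGF, at 559 and 301 bp, neither overlapping its controls.

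Window totals of NR2F2 after IL1b, which carry no test, lay below both day 1 controls in each line. They were 1774 and 1666 bp after IL1b in TeloHAEC against 2795 and 2938 bp in day 1 controls, and they were 3361 and 1799 bp in Eahy926 against 3997 and 3666 bp. Other windows lay below the same TeloHAEC controls too. NR2F2 did so after TNFa, at 2602 and 2476 bp, and without VEGF, at 2343 and 1654 bp. EPHB4 and UNC5B did so after both cytokines, and SOX17 after TNFa and without VEGF. These comparisons share their 2 control libraries, and how many windows elsewhere behave so was not counted. The order also depends on scaling, which multiplied TeloHAEC day 1 control replicate 1 by 1.90. In unscaled bp EPHB4 after IL1b stayed below, at 2162 and 1694 against 2611 and 2417. The other TeloHAEC totals named here overlapped their controls, as NR2F2 did after IL1b, at 2133 and 1636 against 1473 and 2694. NR2F2 in Eahy926 stayed below, at 2689 and 1037 against 3244 and 3392. In Eahy926 the largest bin difference was at EPHB4, -1.40 ± 0.759 for chr7:100420001-100430000 (adjusted p = 0.749). Eahy926 IL1b replicate 2 held 0 bp in that bin and in 2 NR2F2 bins, and with replicate 1 left out the 3 were called (-2.80, -2.67 and -2.33). That fit sets this single library at 0 against the controls, with the spread taken from the other groups. The CXCR4 window in Eahy926 held 882 and 779 bp after IL1b, 802 and 840 bp after TNFa and 885 and 954 bp with VEGF. These totals lay within the range of the day 1 controls. In the tested CXCR4 bin, however, TNFa replicate 1 held 468 bp, below both day 1 controls, at 748 and 1034 bp. The bin was not called after TNFa (-0.38, adjusted p = 0.827). The windows that differed most in Eahy926 were SOX17 after TNFa and UNC5B with VEGF. SOX17 held 350 and 1109 bp against 753 and 0 bp, and UNC5B 661 and 678 bp against 1331 and 656 bp. Both overlapped their controls.

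**Figure D4:**
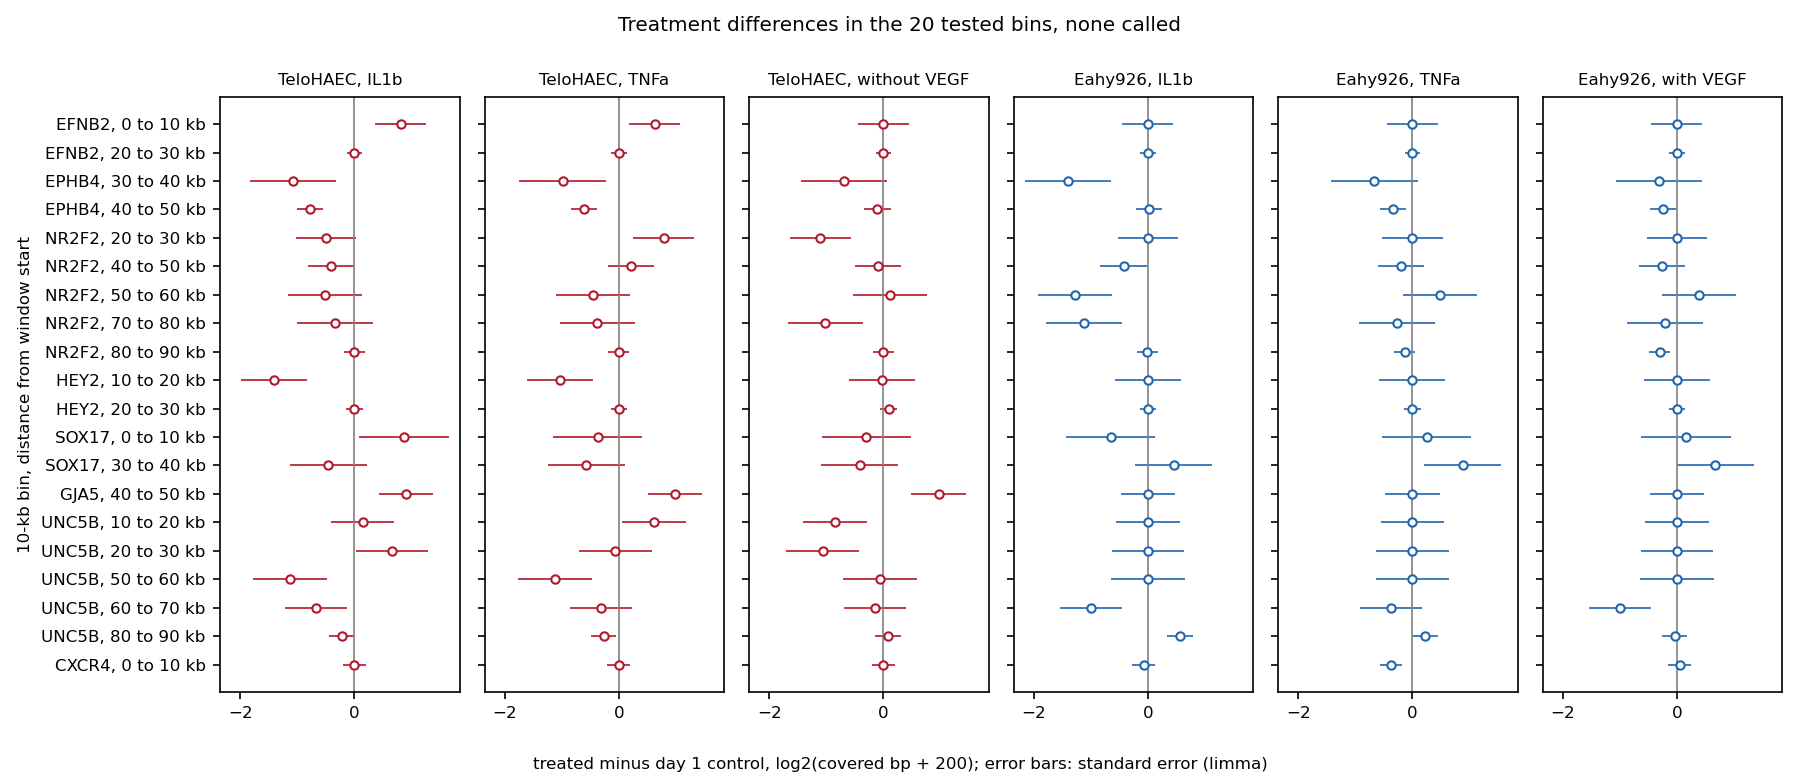
Each point is the difference in log2(covered bp + 200) between 2 treated libraries and the 2 day 1 controls of the same line for 1 of the 20 tested bins, with its standard error, and open symbols mark that none had an adjusted p under 0.05. The HEY2 bin at 10 to 20 kb lies at -1.41 after IL1b and -1.03 after TNFa in TeloHAEC and at 0 in Eahy926, where it has no peak.

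Peak by peak, 5 replicated changes were seen. A region was taken as gained where both treated libraries and no day 1 control had a peak, and as lost in the reverse case. After IL1b in TeloHAEC 1 of the 44 regions was lost, HEY2 chr6:126068820-126070477, and none gained, where 0.56% of all regions were lost and 5.07% gained. After TNFa in TeloHAEC GJA5 chr1:147252813-147253244 was gained and none lost (4.59% and 0.429% of all regions). In Eahy926, NR2F2 chr15:96870746-96871386 was lost after IL1b (2.07% of all regions lost, 0.311% gained) and after TNFa (0.956% lost), where NR2F2 chr15:96874966-96876074 was gained (2.02%). The last region also had a peak in both day 0 Eahy926 controls. No region was gained or lost without VEGF in TeloHAEC (1.07% and 0.886%) or with VEGF in Eahy926 (1.08% and 0.759%). None of the 5 changes was found at a −log10 q of 5 or more.

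Further genes of the same programmes were read in windows placed on the known positions of 9 arterial and 7 venous or lymphatic genes. Of 36 tested arterial bins 15 were called higher in TeloHAEC controls and 3 lower, and of 16 venous or lymphatic bins 6 higher and 3 lower, against the 22.8% and 20.1% of all tested bins given above. Endothelial marker windows gave 11 higher and 2 lower of 33, the epithelial windows 2 lower of 3, the leukocyte window (PTPRC) 1 lower of 3 and the smooth muscle window (MYH11) 0 of 1. Among arterial genes, the Notch ligand gene DLL4 held 2335 ± 196 bp in TeloHAEC and 1359 ± 266 bp in Eahy926 controls, and JAG1, another Notch ligand gene, 3261 ± 223 and 1959 ± 117 bp (SD, n = 4). Each had 2 of 3 tested bins called higher. The receptor gene NOTCH1 had 2 of 5 bins higher and 1 lower, HEY1 had 0 of 2 called, and DKK2 was at 0 in all 20 libraries. Among venous or lymphatic genes, EMCN (endomucin) held 1178 ± 461 bp in TeloHAEC controls and 0 in all 10 Eahy926 libraries. Its tested bins thus met the coverage filter through TeloHAEC libraries alone. LYVE1 held 3292 ± 922 against 530 ± 213 bp, and EMCN and LYVE1 each had 2 bins higher. NT5E, which encodes the ectonucleotidase CD73, held 3452 ± 822 and 5518 ± 833 bp, with 1 bin higher and 2 lower. FLT4 and APLNR were at 0 in all libraries. For the other genes, which line carried a bin past the filter was not counted, so the calls between lines given here are a description.

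After treatment the share of these bins called differed between comparisons. In TeloHAEC 3 arterial bins were higher and 1 lower after IL1b, 1 higher after TNFa and 1 higher without VEGF, and in Eahy926 2 were higher after TNFa and 1 with VEGF, of 36 in each case. The 4 after IL1b in TeloHAEC are 11.1% of the arterial bins, against 4.29% of all tested bins. The 1 after TNFa and the 1 without VEGF are 2.78% each, against 3.55% and 1.67%. In Eahy926 the 2 after TNFa are 5.56%, against 1.21%, and the 1 with VEGF is 2.78%, against 0.259%. These shares rest on few genes. All of the Eahy926 calls were in the NRP1 window. In TeloHAEC the higher bins after IL1b were 2 at NRP1 and 1 at NOTCH4, and the lower bin was at ACVRL1. The calls after TNFa and without VEGF in TeloHAEC were both at NOTCH4. The venous or lymphatic bins gave 1 of 16 higher after IL1b in TeloHAEC (4.29% of all tested bins) and 0 in the other 5 comparisons.

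Over the 10 group means, the window most like each locus was found by Pearson's r of log2(covered bp + 200) among all member and companion windows, as a description. The 10 means fall into 5 of each line and share their libraries between windows. HEY2 was most like UNC5B (r = 0.916) and then DLL4 (0.911), UNC5B most like EMCN (0.922), GJA5 most like EMCN (0.929), and SOX17 most like NOTCH4 (0.925). CXCR4 was most like KRT8 (0.897) and NR2F2 most like NT5E (0.850). EPHB4 and EFNB2 had lower values, 0.665 with ACVRL1 and 0.659 with HEY2.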

How the data were processed

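Alignment by the authors used Bowtie2 and the hg19 build, and MACS2 made the peak lists, per the submitters' processing notes. Per the file headers, each library was run by itself in MACS 2.1.1.20160309 without an input control, with a p cutoff of 0.001, duplicates limited to 1 tag a position, and a local background taken over up to 10000 bp. The deposited pileup is a signal, the number of fragments stacked at a summit, with no correction for depth. The authors' fold enrichment divides that pileup by the local background, so this ratio is relative to a peak's surroundings. The authors' −log10 p and −log10 q score the same contrast. The headers state that q was not computed, yet its column is filled, and it was used. The files hold no read counts per region.

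A peak listed with several summits was counted once. Peaks passing a −log10 q of 2 (22 autosomes and X) were added up in 10-kb bins, and each library was scaled to the mean covered length of the ChIP libraries. A bin was tested if 2 or more ChIP libraries had 500 or more unscaled bp in it. The test was limma 3.58.1 (R 4.3.3) on log2(covered bp + 200), a single fit of 10 group means to 20 libraries, with Benjamini-Hochberg adjustment over all bins and calls at 0.05. Window totals were described without a test. The pseudocount limits a log2 difference against a group at 0, so it is neither a fold nor a bound. The fit was also run on simulated data in which every bin varied between libraries. That run cannot show how the fit behaves in bins where whole groups are at 0, which are common at these loci. Tables were made with python 3.11.15, numpy 2.4.6 and pandas 2.3.3, and figures with matplotlib 3.10.9.

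The loci, their windows and the gene lists were chosen with earlier results of these data known. The text names, for each locus, the called bin with the largest line difference in each direction, the remaining called bins after their values were seen, the largest treatment differences where none was called, and the region with the highest median fold enrichment. Companion windows were placed from general knowledge of hg19 gene positions, since no hg19 annotation was used here, and RefSeq (GRCh38.p14) gave names, neighbours and promoter sequences only. Alternatives were the peak threshold, list length, scaling, pseudocount, filter, bin size, fitted samples, a replicate block, days apart and each library left out.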

Additional observations from a re-analysis of the deposited data

How the results depend on the processing

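Between lines, 11 of the tested member bins were called. No called 10-kb bin took the opposite sign under an alternative in which it was tested. Differences of 0, as at EFNB2 and HEY2 in day 1 controls, were not counted as a change, and signs in 5-kb bins were not compared. The count was 8 with peaks at a −log10 q of 5 or more, 10 to 12 under the other settings of threshold, list number, scaling, pseudocount, filter, 5-kb bins and fitted samples, 4 with equal covered length in every library, where only 10 of the bins could be tested, 10 with day 0 controls alone and 5 with day 1 controls alone. Leaving out 1 control gave 8 to 13. In the cytokine libraries the count was 7, with 4 from IL1b libraries alone, 5 from TNFa libraries alone, and 5 to 8 without 1 library, a setting chosen after seeing the data. At a −log10 q of 5 or more the log2 difference of window totals moved from 0.18 to 0.64 at EPHB4, from -0.36 to 0.40 at NR2F2 and from 0.84 to 0 at GJA5.

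For the treatments, where 0 bins were called, IL1b in TeloHAEC gave 1 at a −log10 q of 5 or more and 2 with equal covered length. Against controls of both days the count was 3 for each TeloHAEC treatment, at HEY2, EFNB2 and NR2F2 bins that day 0 controls cover and day 1 controls do not, and 1 each for IL1b and VEGF in Eahy926. Leaving out 1 library gave 0 to 2 for IL1b, 0 to 4 for TNFa and 0 to 1 for VEGF in TeloHAEC, and 0 to 3 for IL1b in Eahy926. The TNFa calls came without TeloHAEC day 1 control replicate 2, and those of IL1b in Eahy926 without its replicate 1. At a −log10 q of 5 or more, gained regions numbered 1 after IL1b and 0 after TNFa in TeloHAEC and 0 after TNFa in Eahy926, and lost regions 0 after IL1b in TeloHAEC, 1 without VEGF, and 0 after IL1b and 0 after TNFa in Eahy926. For changes beyond those due to fewer tested bins or libraries, the cause was not tested.

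With the library label as a replicate block, the count between lines was 11 and that of each treatment 0. Deviations of same-numbered libraries correlated at -0.061 to 0.156 over 28 pairs, 1 of them over 0.1, so the numbers were not taken to pair libraries. At 3843129 to 7122108 tags on day 1, a window at 0 shows that no peak was called at this depth.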
